A study of Homo sapiens with 12 samples.

Results

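Metallothioneins are small, cysteine-rich proteins that bind zinc, copper and cadmium, and most human metallothionein genes lie side by side on chromosome 16. The genes described here were the metallothioneins MT2A, MT1E, MT1F, MT1G, MT1M and MT1X and the zinc-sensing transcription factor MTF1, chosen by name. Of these 7 genes, 4 (MT2A, MT1F, MT1X and MTF1) were listed among the 29696 genes of the expression table, and 3 (MT2A, MT1X and MTF1) passed the filter on low values and were tested among 12985 genes. MT1E, MT1G and MT1M were not analysed here.

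The cells were A375, an established line from a human melanoma, in 2 groups that both received lentivirus. The shALKBH5 cells, labelled as an ALKBH5 knockdown, expressed a short hairpin RNA against ALKBH5, an enzyme that removes the m6A mark from RNA, and the shCtrl cells, labelled as wild type, carried the scrambled hairpin. The labels list no treatment. The study's RNA-Seq methods give a harvest time after infection that falls before the end of the puromycin selection in its general infection protocol, so whether the sequenced cells had been selected cannot be told, and the hairpin used for sequencing is not given in the sources used here. RNA-Seq of input poly(A) RNA (3 libraries per group) measured expression, and MeRIP-Seq (3 immunoprecipitated, IP, libraries per group), in which RNA fragments are captured with an antibody against m6A, measured methylation. All libraries were from 1 cell line, and the labels do not say whether the 3 libraries of a group came from separate cultures, so the p-values below measure the spread between these libraries, which may be technical.

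As background, metallothioneins buffer free zinc and copper and take up reactive oxygen species through their cysteine thiols. When zinc or cadmium rises, MTF1 binds short metal response elements in the metallothionein promoters and switches the genes on, together with the zinc exporter SLC30A1. MT2A is also known to respond to glucocorticoids, and metallothioneins have long been studied in melanoma.

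The promoters of the 3 tested members are shown here because metal response elements, through which MTF1 acts, can be looked for in them. They were matched by gene symbol (3 of 7 members) and taken from RefSeq on GRCh38.p14. Each line gives the 250 bases before the start site, 5′ to 3′ on the transcribed strand, of MT2A (chr16:56608334-56608583, plus strand), MT1X (chr16:56682220-56682469, plus strand) and MTF1 (chr1:37859593-37859842, minus strand). Capitals mark matches to the core of the metal response element, searched as TGCGCNC and TGCACNC on both strands, with overlapping matches allowed.
MT2A: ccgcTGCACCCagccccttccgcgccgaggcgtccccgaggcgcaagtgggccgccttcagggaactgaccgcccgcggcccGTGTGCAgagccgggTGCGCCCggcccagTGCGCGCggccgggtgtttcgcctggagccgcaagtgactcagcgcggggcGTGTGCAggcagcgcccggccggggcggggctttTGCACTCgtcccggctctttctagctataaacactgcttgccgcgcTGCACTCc
MT1X: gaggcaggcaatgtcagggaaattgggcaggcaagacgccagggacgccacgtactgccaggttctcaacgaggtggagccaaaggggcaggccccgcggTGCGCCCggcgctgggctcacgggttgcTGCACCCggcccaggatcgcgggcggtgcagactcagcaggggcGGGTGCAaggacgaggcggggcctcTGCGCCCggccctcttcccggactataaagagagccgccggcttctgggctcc
MTF1: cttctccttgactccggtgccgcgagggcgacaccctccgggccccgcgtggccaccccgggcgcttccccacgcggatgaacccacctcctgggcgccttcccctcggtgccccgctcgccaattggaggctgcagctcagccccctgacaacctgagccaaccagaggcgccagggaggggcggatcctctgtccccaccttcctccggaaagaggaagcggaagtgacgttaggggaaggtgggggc

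The MT2A promoter held 7 core matches, with first bases 246, 168, 153, 139, 88, 54 and 8 bases before the start site. The MT1X promoter held 4 matches, at 150, 122, 78 and 53 bases before the start site, and the MTF1 promoter held 0 in this window. Of 35116 human promoters of the same length, 24.8% held at least 1 match, 0.370% held at least 4 and 0.0313% held at least 7. MT2A and MT1X each had 1 TATAAA box, a motif found in 10.7% of these promoters. MT2A also had 1 match to the AP-1 element TGACTCA, found in 4.20% of promoters, and MT1X and MTF1 had 0. These matches describe the letters and are not evidence of binding.

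Expression is given as FPKM, in which fragments are divided by the length of the transcript and by the mapped total of the library. Because no read counts were used, sequencing depth is unknown. The FPKM total ranged from 221946 to 223231 over shALKBH5 and from 212760 to 218966 over shCtrl libraries, and log2 profiles correlated at 0.981 to 0.984 within groups and 0.929 to 0.934 between groups. ALKBH5 itself was 3.39, 3.92 and 3.12 FPKM in shALKBH5 and 19.3, 17.8 and 17.6 FPKM in shCtrl cells. Of the melanocyte lineage markers, SOX10 (181 FPKM in shALKBH5 and 184 in shCtrl) and S100B (82.1 and 32.9 FPKM) were high, whereas MITF was at 1.26 and 0.777 FPKM, TYRP1, DCT and TYR were below 0.5 FPKM in each library and MLANA was not listed. PMEL was at 0.611 ± 0.116 FPKM in shALKBH5 and 0.237 ± 0.0629 FPKM in shCtrl (n = 3 each, 2.58-fold), with no overlap between groups, and lay below the filter and was not tested. The 6 dedifferentiated melanoma markers summed to 303 to 327 FPKM in shALKBH5 and 358 to 369 FPKM in shCtrl libraries. Of these, TNC was at 251 and 236 FPKM, AXL at 46.1 and 80.4 FPKM, NT5E at 9.49 and 12.0 FPKM and NGFR at 5.66 and 34.7 FPKM in shALKBH5 and shCtrl, and SOX9 and EGFR were below 1 FPKM in both. S100B and, narrowly, MITF (adjusted p = 0.0475) rose, and AXL, NGFR, NT5E, SOX9 and EGFR fell, by the limma test. The MITF groups overlapped, with 1.57, 0.913 and 1.31 FPKM in shALKBH5 and 0.675, 1.01 and 0.645 FPKM in shCtrl libraries. Summed over 5 immune markers, the level was 42.7 to 46.6 FPKM in shALKBH5 and 15.6 to 18.0 FPKM in shCtrl libraries. This sum came from CD68 and LYZ, while PTPRC, CD3E and MS4A1 were not listed. CD68 (log2 1.32, limma adjusted p = 4.447e-06) and LYZ (log2 2.34, limma adjusted p = 3.376e-06) both rose. Fibroblast markers summed to 3.20 to 4.35 and 2.23 to 2.37 FPKM, keratinocyte markers to 10.7 to 11.5 and 8.90 to 9.53 FPKM and endothelial markers to 3.75 to 4.24 and 2.33 to 2.64 FPKM in shALKBH5 and shCtrl libraries. In these lists LUM (log2 1.09), KRT10 (0.39) and KDR (0.77) rose, KRT14 (-1.22) fell, and KRT5, KRT1 and DSG3 were not listed. The part of these shifts in the results below was not tested.

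MT2A (ENSG00000125148, chr16:56608584-56609497, plus strand) is the main metallothionein of most human tissues. Its level was 85.5, 81.2 and 84.1 FPKM in the shALKBH5 libraries and 227, 199.6 and 209.8 FPKM in the shCtrl libraries. Every knockdown library lay below every control library. The mean was 83.6 ± 2.21 FPKM (SD, n = 3) in shALKBH5 and 212 ± 13.8 FPKM in shCtrl cells, 2.54-fold lower in the knockdown. On the log2(FPKM + 0.1) scale, MT2A fell by 1.34 (SE 0.0522, limma with Benjamini-Hochberg adjustment over all genes tested, adjusted p = 1.459e-06). Of all tested genes, 6.3% had a larger absolute log2 fold change. In bulk RNA, fewer cells expressing a gene and less RNA per cell cannot be told apart.

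MT2P1, a processed pseudogene of MT2A on chromosome 4 (chr4:68376323-68376505), can share reads with MT2A. It was listed at 3.23, 2.46 and 2.95 FPKM in shALKBH5 and 7.95, 7.12 and 7.47 FPKM in shCtrl libraries, and fell by 1.36 on the log2 scale (SE 0.103, limma adjusted p = 2.940e-05). MT2P1 FPKM amounted to 3.44 ± 0.379% of MT2A FPKM in shALKBH5 and 3.54 ± 0.0343% in shCtrl libraries (n = 3 each). The groups overlapped, with 3.77, 3.03 and 3.51% in the shALKBH5 libraries and 3.51, 3.57 and 3.56% in the shCtrl libraries. No test of this ratio is given. Whether the reads came from the pseudogene or from MT2A cannot be told from these values. Of 15 other metallothionein genes and pseudogenes that were looked for, 3 were listed, and the remaining pair, MT1P1 and MT1XP1, stayed below 0.5 FPKM in each library and were not tested.

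MT1X (ENSG00000187193, chr16:56682470-56684196, plus strand), a metal-inducible member of the MT1 subfamily, moved in the opposite direction. Its level was 8.57, 9.43 and 9.31 FPKM in the shALKBH5 libraries and 6.75, 5.71 and 5.46 FPKM in the shCtrl libraries. The knockdown libraries were all higher than the control libraries. Its mean was 9.11 ± 0.467 FPKM in shALKBH5 and 5.97 ± 0.681 FPKM in shCtrl cells, which is 1.52-fold higher in the knockdown. MT1X rose by 0.60 on the log2(FPKM + 0.1) scale (SE 0.0874, limma adjusted p = 0.000713), and 28.5% of all tested genes had a larger absolute change.

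MT1F (ENSG00000198417, chr16:56657731-56660698, plus strand), another MT1 gene of the same cluster, was listed at 0 FPKM in the 3 shALKBH5 libraries. In the shCtrl libraries it was listed at 0.0740, 0.0254 and 0 FPKM. It lay far below the filter of a mean of 0.5 FPKM, was not tested, and no fold is given because an exact 0 can be a failed estimate.

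**Figure D1:**
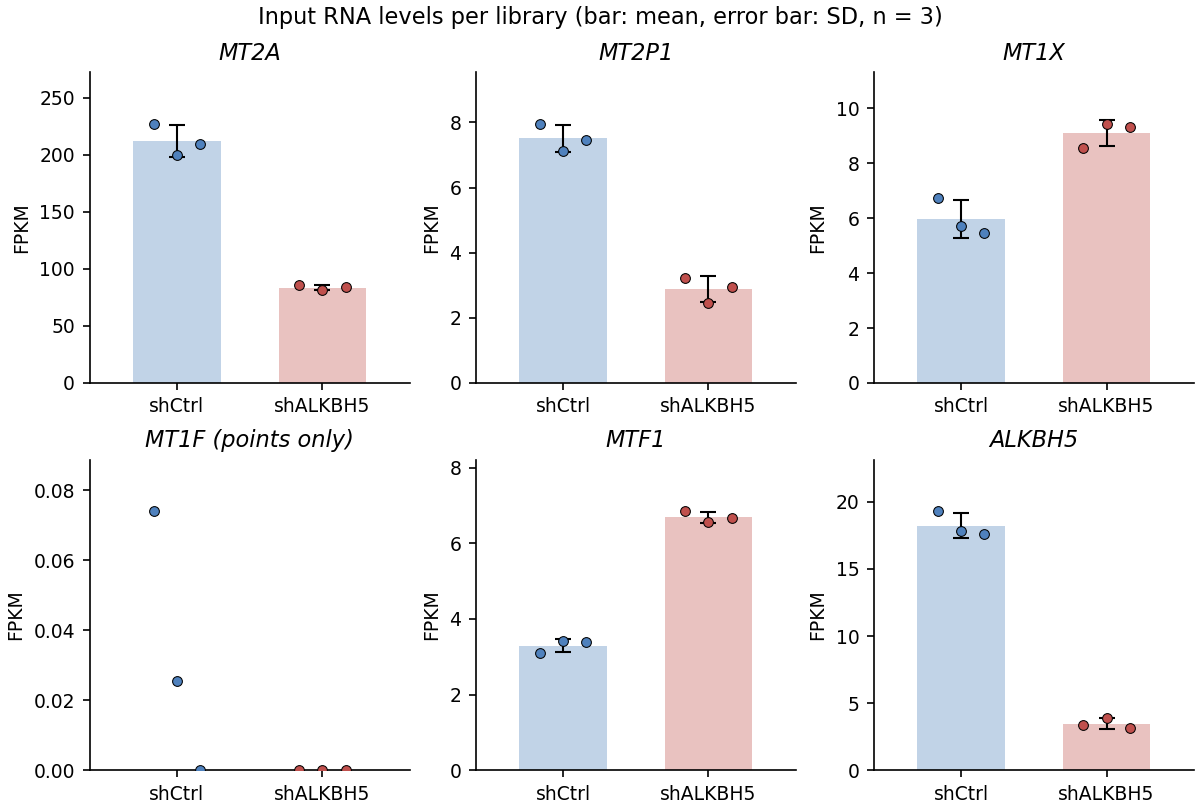
Input RNA level (FPKM, linear axes from 0) per library for MT2A, its pseudogene MT2P1, MT1X, MT1F, MTF1 and ALKBH5 in shCtrl (blue) and shALKBH5 (red) cells. Bars are means and error bars SD (n = 3), except for MT1F, where only the library values are drawn. MT2A fell from 212 to 83.6 FPKM, whereas MT1X rose from 5.97 to 9.11 FPKM and MTF1 from 3.30 to 6.69 FPKM.

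The balance between the listed metallothioneins shifted with these opposite changes. Per length, MT2A was the most abundant of the 4 listed members in both groups, above 98.3% of tested genes by its mean level, and MT1X was above 66.0%. MT1X FPKM amounted to 10.0, 11.6 and 11.1% of MT2A FPKM in the shALKBH5 libraries and to 2.97, 2.86 and 2.60% in the shCtrl libraries. The ratio averaged 10.9 ± 0.812% and 2.81 ± 0.190%, a difference of 1.95 on the log2 scale (3.88-fold), with no overlap between groups. An exact permutation test gave p = 0.10 for this ratio, the smallest that 3 against 3 libraries allow. The summed FPKM of MT2A, MT1X and MT1F was 92.7 ± 1.84 in shALKBH5 and 218 ± 14.4 in shCtrl libraries, of which MT2A made up 90.2% and 97.2%. Since coding sequences of this family are closely similar, reads can be split between paralogs, and levels compared between members are uncertain for that reason.

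MTF1 (ENSG00000188786, chr1:37809574-37859592, minus strand), the zinc-sensing activator of metallothionein genes, was higher in the knockdown. Its level was 6.85, 6.56 and 6.66 FPKM in the shALKBH5 libraries and 3.10, 3.41 and 3.38 FPKM in the shCtrl libraries. The groups lay apart, with a spread within each group below 0.5 FPKM. The mean of 6.69 ± 0.147 FPKM in shALKBH5 was 2.03-fold that of 3.30 ± 0.170 FPKM in shCtrl cells. MTF1 rose by 1.00 on the log2(FPKM + 0.1) scale (SE 0.0620, limma adjusted p = 1.091e-05), and 12.3% of tested genes had a larger absolute change. In both groups the order of levels was MT2A, MT1X, MTF1 and MT1F, and neighbours in this order did not overlap in any library of a group.

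Each of the 3 tested members was called (adjusted p under 0.05), 2 higher and 1 lower, but changes of this kind were common in these data. Of the 12985 genes tested, 61.0% were called in either direction, 34.7% higher and 26.2% lower (4509 and 3408 genes, or 3788 and 3898 after each library was rescaled by its median ratio). The groups did not overlap for any of the 3 tested members, nor for 67.0% of all tested genes. Each of the 3 was called with an absolute log2 fold change of at least 0.5, which held for 34.3% of all tested genes. At an absolute log2 fold change of at least 1, which held for 11.7% of tested genes together with the call, MT2A passed and MTF1 lay just under the limit. The median log2 fold change of all tested genes was 0.09, and it was 0.02 after each library was rescaled by its median ratio, under which MT2A was at -1.42, MT1X at 0.53 and MTF1 at 0.93.

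**Figure D2:**
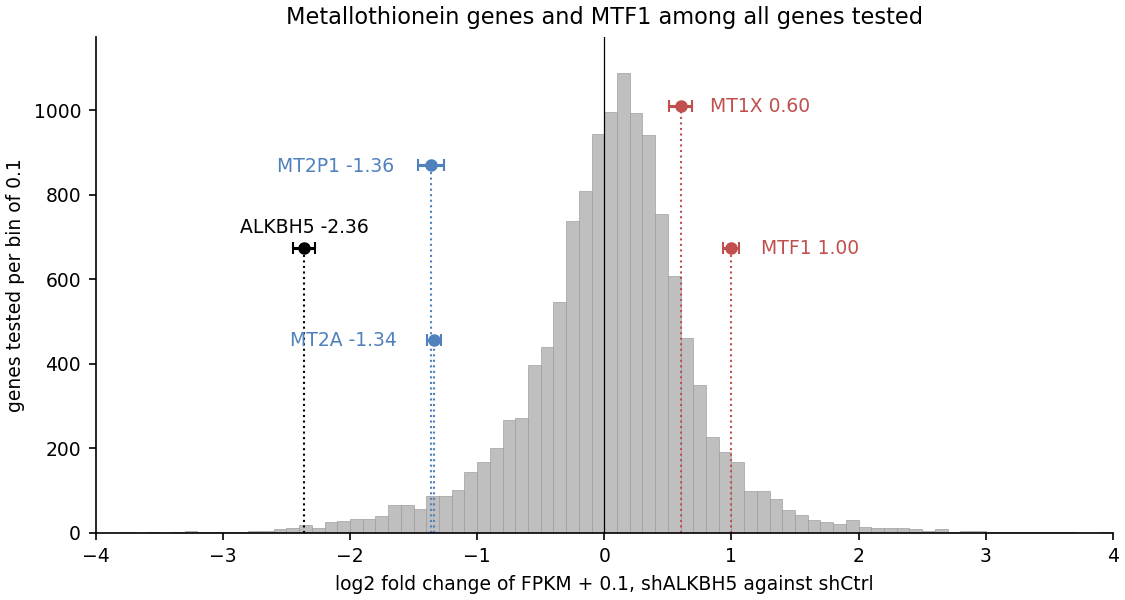
Distribution of the log2 fold change (shALKBH5 against shCtrl, log2(FPKM + 0.1)) over the 12985 tested genes in bins of 0.1, with 5 genes beyond the axis. Points with SE bars mark MT2A (-1.34), its pseudogene MT2P1 (-1.36), MT1X (0.60), MTF1 (1.00) and ALKBH5 (-2.36), and their heights have no meaning. MT2A and MTF1 lie in opposite flanks of the distribution.

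Most zinc transporters of the SLC30 family, listed here as zinc exporters, move zinc out of the cytosol into vesicles or out of the cell. Of 9 genes in the list, 6 were tested, of which 3 rose, 2 fell and 1 was not called, with a median log2 fold change of 0.23 (0.09 over all tested genes). The counts of this and the following lists are to be read beside the 34.7% of all tested genes called higher and the 26.2% called lower. SLC30A1, the plasma membrane exporter that MTF1 is known to induce, was 3.19, 2.96 and 3.26 FPKM in shALKBH5 and 2.60, 3.04 and 2.70 FPKM in shCtrl libraries. Its groups overlapped, and its log2 fold change of 0.17 (SE 0.0833) did not pass the test (limma adjusted p = 0.114), although it did without the shCtrl library of replicate 2 (0.23, adjusted p = 0.0373). SLC30A6, a zinc transporter of the Golgi, rose from 2.74 ± 0.194 to 7.74 ± 0.269 FPKM (log2 1.47, adjusted p = 3.542e-06). SLC30A7, also of the Golgi, rose by 0.89 and SLC30A9, a mitochondrial zinc transporter, fell by 0.72 on the log2 scale. SLC30A4 was the other exporter that fell (log2 -0.50, adjusted p = 0.0335), and only 1 exporter was called lower without shALKBH5 replicate 2 or 3 or shCtrl replicate 2 or 3, with a replicate block, with no filter and with a filter at 1 FPKM.

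Zinc importers of the SLC39 family bring zinc into the cytosol. All 14 were listed and 11 tested, of which 6 rose, 3 fell and 2 were not called (median log2 fold change 0.29). SLC39A10, a plasma membrane importer that MTF1 is known to repress, was 0.671, 0.611 and 0.792 FPKM in shALKBH5 and 1.14, 1.73 and 1.28 FPKM in shCtrl libraries. It lay lower in each knockdown library and fell by 0.89 on the log2 scale (SE 0.177, limma adjusted p = 0.00356), an understatement for a gene so low because of the added 0.1 FPKM (log2 -0.49 with a pseudocount of 1). SLC39A11 fell from 3.36 ± 0.261 to 1.77 ± 0.153 FPKM (log2 -0.89), and SLC39A9, an importer of the Golgi, rose from 8.93 ± 0.673 to 14.2 ± 0.234 FPKM (log2 0.66). SLC39A7, which releases zinc from the endoplasmic reticulum, rose by 0.63, and SLC39A14, a plasma membrane importer of zinc, iron and manganese, fell by 0.54.

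Copper handling genes, of which 12 of 15 were tested, showed 7 higher, 2 lower and 3 not called, with a median log2 fold change of 0.38. SLC31A1, the main copper importer of the plasma membrane, rose from 10.5 ± 0.535 to 20.0 ± 0.784 FPKM (log2 0.93, SE 0.0553, limma adjusted p = 9.376e-06). The mitochondrial copper chaperones SCO2 (log2 1.22) and SCO1 (log2 0.59) rose, as did the cytosolic chaperone ATOX1 (log2 0.55). The pair called lower was COX17 (log2 -0.30), which hands copper to cytochrome c oxidase, and SOD1 (log2 -0.18), the copper-zinc superoxide dismutase. The copper exporters ATP7A (log2 -0.11, adjusted p = 0.639) and ATP7B (log2 0.13, adjusted p = 0.509) did not pass the test.

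**Figure D3:**
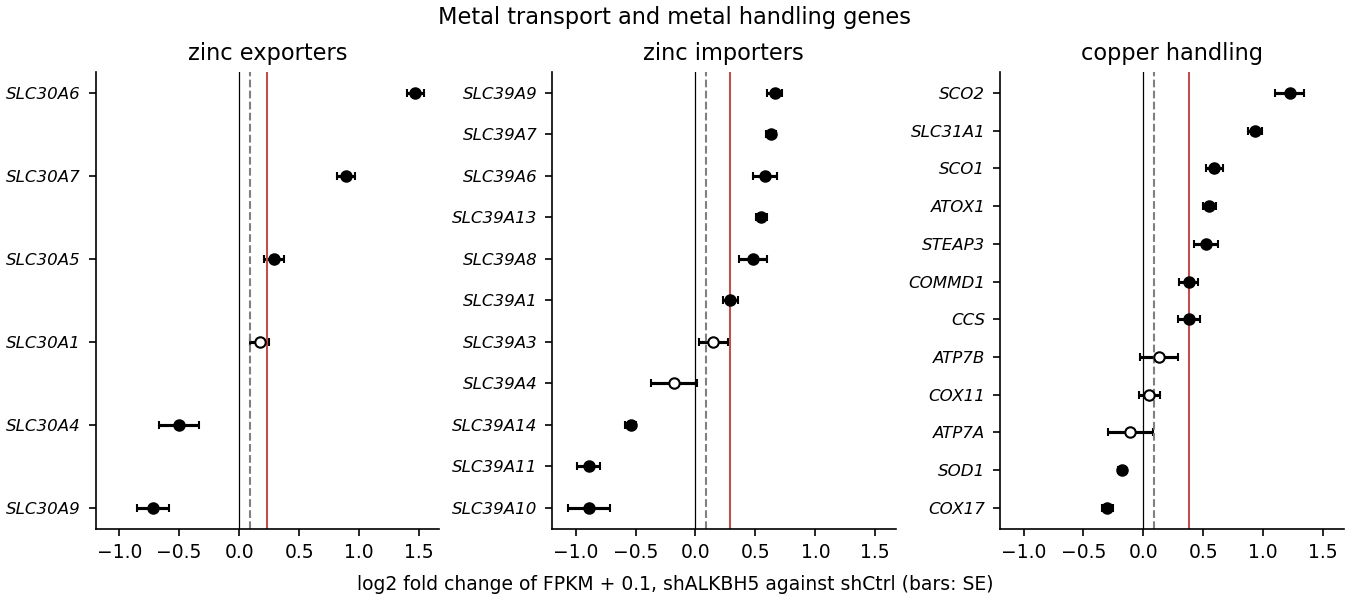
Log2 fold change (shALKBH5 against shCtrl, log2(FPKM + 0.1)) with SE bars for the tested zinc exporters, zinc importers and copper handling genes. Filled points passed an adjusted p of 0.05 and open points did not. The red line is the median of the list (0.23, 0.29 and 0.38) and the dashed line the median of all tested genes (0.09), and each list holds genes on both sides of 0.

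Heat shock and heavy metal stress genes, many of which respond to cadmium through HSF1 or NRF2, showed 2 higher, 5 lower and 4 not called among 11 tested (median log2 fold change -0.12). HMOX1, the heme oxygenase induced by heavy metals, rose from 3.35 ± 0.317 to 5.41 ± 0.297 FPKM (log2 0.68, SE 0.0847, limma adjusted p = 0.000343). The HSP40 co-chaperone DNAJB1 rose by 0.83. The HSP70 gene HSPA1A fell by 0.74 and its near-identical neighbour HSPA1B fell by 0.47, between which reads can be split. HSF1, the heat shock transcription factor, fell by 0.55.

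Glutathione and thioredoxin genes, the other main thiol system beside metallothioneins, showed 1 higher, 6 lower and 8 not called among 15 tested (median log2 fold change -0.05). GPX4, the glutathione peroxidase that repairs lipid peroxides, fell from 64.4 ± 4.06 to 23.8 ± 1.36 FPKM (log2 -1.43, SE 0.0619, limma adjusted p = 2.182e-06), a change close in size to that of MT2A. SLC7A11, the cystine importer, fell by 0.94 (by 0.47 with a pseudocount of 1), the quinone reductase NQO1 fell by 0.72 and the peroxiredoxin PRDX1 fell by 0.33. GPX1 was the gene called higher (log2 0.20, adjusted p = 0.0157). The count of higher genes in this list was 0 without shALKBH5 replicate 3 or shCtrl replicate 3 and 4 without shCtrl replicate 1.

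The list of genes known to be induced by glucocorticoids also held the gene of their receptor, NR3C1. Of 10 tested, 6 were higher, 1 was lower and 3 were not called, with a median log2 fold change of 0.50. The phosphatase DUSP1 rose from 8.04 ± 0.462 to 22.4 ± 0.774 FPKM (log2 1.47), the RNA-decay factor ZFP36 rose by 1.28 and SGK1, a kinase, rose by 0.86. FKBP5, a cochaperone of the glucocorticoid receptor, fell by 0.95 (by 0.49 with a pseudocount of 1), and the receptor gene NR3C1 did not pass the test (log2 0.26, adjusted p = 0.110). The labels give no treatment for either group.

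MTF1 partners and proposed targets showed 4 higher, 3 lower and 4 not called among 11 tested (median log2 fold change 0.10). PGF, a placental growth factor gene that MTF1 is known to activate, fell from 1.51 ± 0.154 to 0.628 ± 0.0873 FPKM (log2 -1.15, SE 0.141, limma adjusted p = 0.000308, and log2 -0.62 with a pseudocount of 1). PRNP, which encodes the copper-binding prion protein, rose by 0.93 and NFKB1, an NF-kappaB subunit, rose by 0.82. The ferritin heavy chain FTH1 fell by 0.77, while the co-activators CREBBP (log2 0.10, adjusted p = 0.151) and EP300 (log2 0.01, adjusted p = 0.893) did not pass the test.

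Beside the cluster on chromosome 16, 10 tested genes lay within 500 kb of the stretch from MT2A to MT1X. Of these, 2 were higher, 7 were lower and 1 was not called, with a median log2 fold change of -0.31, beside 34.7% higher and 26.2% lower among all tested genes. Upstream of MT2A, BBS2, a gene of the primary cilium at 88.5 kb, fell from 3.52 ± 0.345 to 2.75 ± 0.183 FPKM (log2 -0.34, SE 0.0940, limma adjusted p = 0.0152), a call that was lost without shALKBH5 replicate 3 (adjusted p = 0.0542) or shCtrl replicate 3 (adjusted p = 0.0530). OGFOD1, a ribosomal oxygenase gene that overlaps the end of BBS2 on the other strand, rose from 9.19 ± 0.795 to 14.4 ± 1.15 FPKM (log2 0.64), and reads of the pair cannot be told apart if the counting ignored strand. Downstream of MT1X, the nucleoporin NUP93 at 45.9 kb fell by 0.41 and the stress gene HERPUD1 at 247.9 kb fell by 0.22. CPNE2, a calcium-dependent membrane-binding protein gene at 408.4 kb, had the largest change among these neighbours, from 4.63 ± 0.136 to 1.93 ± 0.104 FPKM (log2 -1.22). The fall of MT2A (log2 -1.34) was larger in size than that of each tested neighbour, and MT1X (log2 0.60) was near OGFOD1 (0.64) and NLRC5 (0.55), an immune regulator gene.

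**Figure D4:**
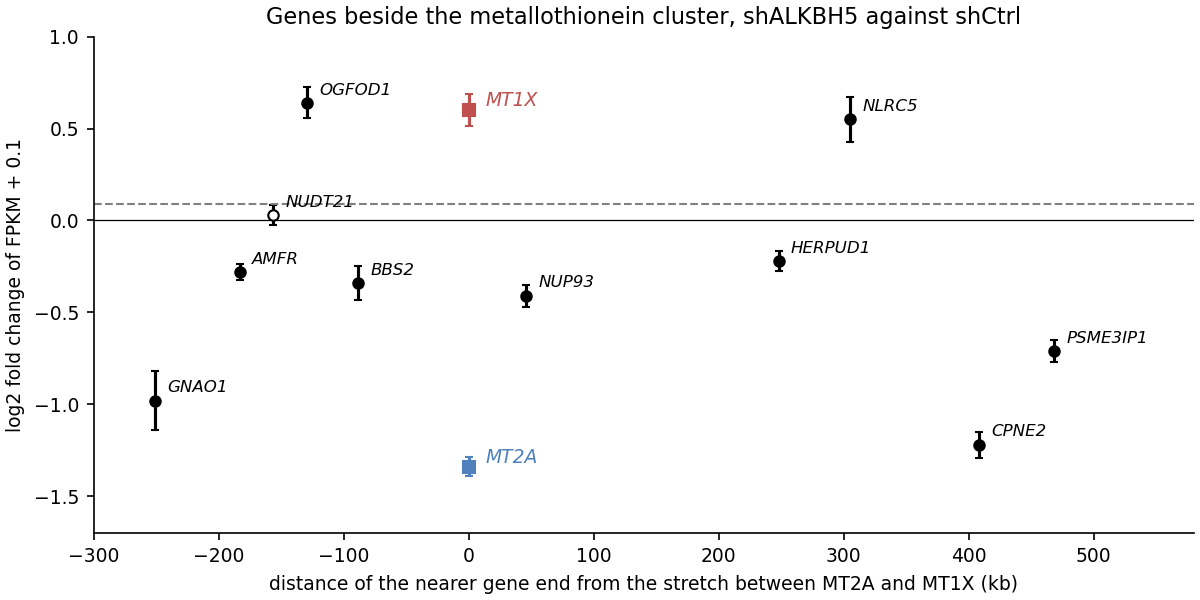
Log2 fold change (shALKBH5 against shCtrl, log2(FPKM + 0.1)) with SE bars of the 10 tested genes within 500 kb of the stretch from MT2A to MT1X, by the distance (kb) of their nearer end from it, negative on the MT2A side. Squares mark MT2A and MT1X at 0, filled points passed an adjusted p of 0.05, the open point did not, and the dashed line is the median of all tested genes. Values on both sides of 0 occur within the same stretch.

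For likeness to MT2A over the 6 input libraries, log2(FPKM + 0.1) was correlated (Pearson) in 12981 genes, without the members and other metallothioneins. The genes most like MT2A were the ubiquitin-conjugating enzyme UBE2S, the isomerase HYI and the nuclear lamin LMNB2, each with r = 0.9999. UBE2S fell from 98.7 to 25.8 FPKM, HYI from 6.71 to 1.51 FPKM and LMNB2 from 47.0 to 22.3 FPKM. These libraries share the contrast between groups, and 1095 genes correlated with MT2A above 0.98, so the likeness mostly describes the difference between groups.

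For m6A, peaks were listed once for each group with their enrichment in IP against input, without values per IP library, so no replicate check was possible and no test is given. The shALKBH5 list had 46039 peaks and the shCtrl list 44304. Of these, 10 and 11 peaks belonged to the members, namely 3 and 3 to MT2A, 4 and 5 to MT1X, and 3 and 3 to MTF1, with 0 in either list for MT1F. Several of these peaks overlap one another and share a transcript. The median fold enrichment of all peaks was 5.31 in shALKBH5 and 5.25 in shCtrl.

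MT2A carried 3 peaks in each list. The strongest began at the start site and was annotated to the 5′UTR (chr16:56608584-56608849 in shALKBH5 and chr16:56608584-56608879 in shCtrl). Its fold enrichment was 3.59 in shALKBH5 and 3.48 in shCtrl. The 3′UTR peak, ending at the gene end, had 2.12 in shALKBH5 and 2.29 in shCtrl, and the exonic peak between them had 1.31 and 1.43. Enrichment on MT2A was thus nearly equal in both lists (log2 ratios 0.04, -0.11 and -0.13) while its RNA level fell 2.54-fold. All 3 lay below the median of their list, and peaks of highly expressed genes (50 FPKM or more on average) had a median of 2.73 in the shCtrl list.

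MT1X also had peaks at both ends. The 5′UTR peak had a fold enrichment of 2.29 in shALKBH5 (chr16:56682470-56682678) and 2.53 in shCtrl (chr16:56682470-56682649). The 3′UTR peak had 2.15 in shALKBH5 (chr16:56683958-56684166) and 2.59 in shCtrl (chr16:56683988-56684196), a log2 ratio of -0.27. The exonic peak went the other way, with 1.69 in shALKBH5 and 1.22 in shCtrl (log2 ratio 0.47). The shCtrl list also had an intronic peak of 209 bases with 3.83, the weakest member peak by its log10 FDR (-1.83). Its stretch lay within a shALKBH5 peak of 5135 bases that ran from the MT1X start to 3408 bases past the gene end with 2.27. Peaks that span several segments are given by their outer ends, so not each base within them need be enriched.

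MTF1 had the most enriched peaks among the members. A peak annotated to the 5′UTR ran from the start site across 19490 bases of the gene, introns included, in shALKBH5 (chr1:37840103-37859592) and 19460 bases in shCtrl (chr1:37840133-37859592). Its fold enrichment was 5.58 in shALKBH5 and 7.56 in shCtrl, a log2 ratio of -0.44, which was above that of 25.7% of all overlapping pairs. The larger 3′UTR peak had 8.34 and 8.55, a log2 ratio of -0.04, the same as the median of all overlapping pairs. The smaller one had 4.44 and 6.81, a log2 ratio of -0.62, above that of 20.0% of these pairs. Each of the 3 MTF1 peaks therefore had the lower value in shALKBH5, as did 52.9% of all overlapping pairs. MTF1 RNA was 2.03-fold higher in shALKBH5 cells.

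With a reciprocal overlap of at least 50%, the members had 7 pairs of a shALKBH5 and a shCtrl peak, of which 6 had the lower enrichment in shALKBH5, as did 54.5% of all pairs in the series with that overlap. Taking all overlaps of at least 1 base on the same strand and gene, the members had 18 pairs, 15 of them lower in shALKBH5. These 18 pairs are not separate, since the MT1X peak of 5135 bases takes part in 5 of them and 1 MT2A pair shares only 1 base, so their count is not to be read against the 52.9% of 43518 such pairs over the series that were lower. Over the 43518 pairs the median log2 ratio was -0.04, with quartiles of -0.46 and 0.42. The 7 member pairs with the reciprocal overlap lay within these quartiles. Of the other member pairs, 7 lay outside them. These were the MT1X exonic pair (0.47), the smaller MTF1 3′UTR pair (-0.62), the MT2A pair that shares 1 base (-0.81) and 4 MT1X pairs of peaks annotated to different regions (-1.18, -0.75, -0.56 and 0.90). The deposited table of differential peaks lists 6513 peaks, among them the MTF1 5′UTR peak (chr1:37840103-37859592) and an MT1X 3′UTR peak (chr16:56683958-56684196), and no peak of MT2A. Its statistics were not used.

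**Figure D5:**
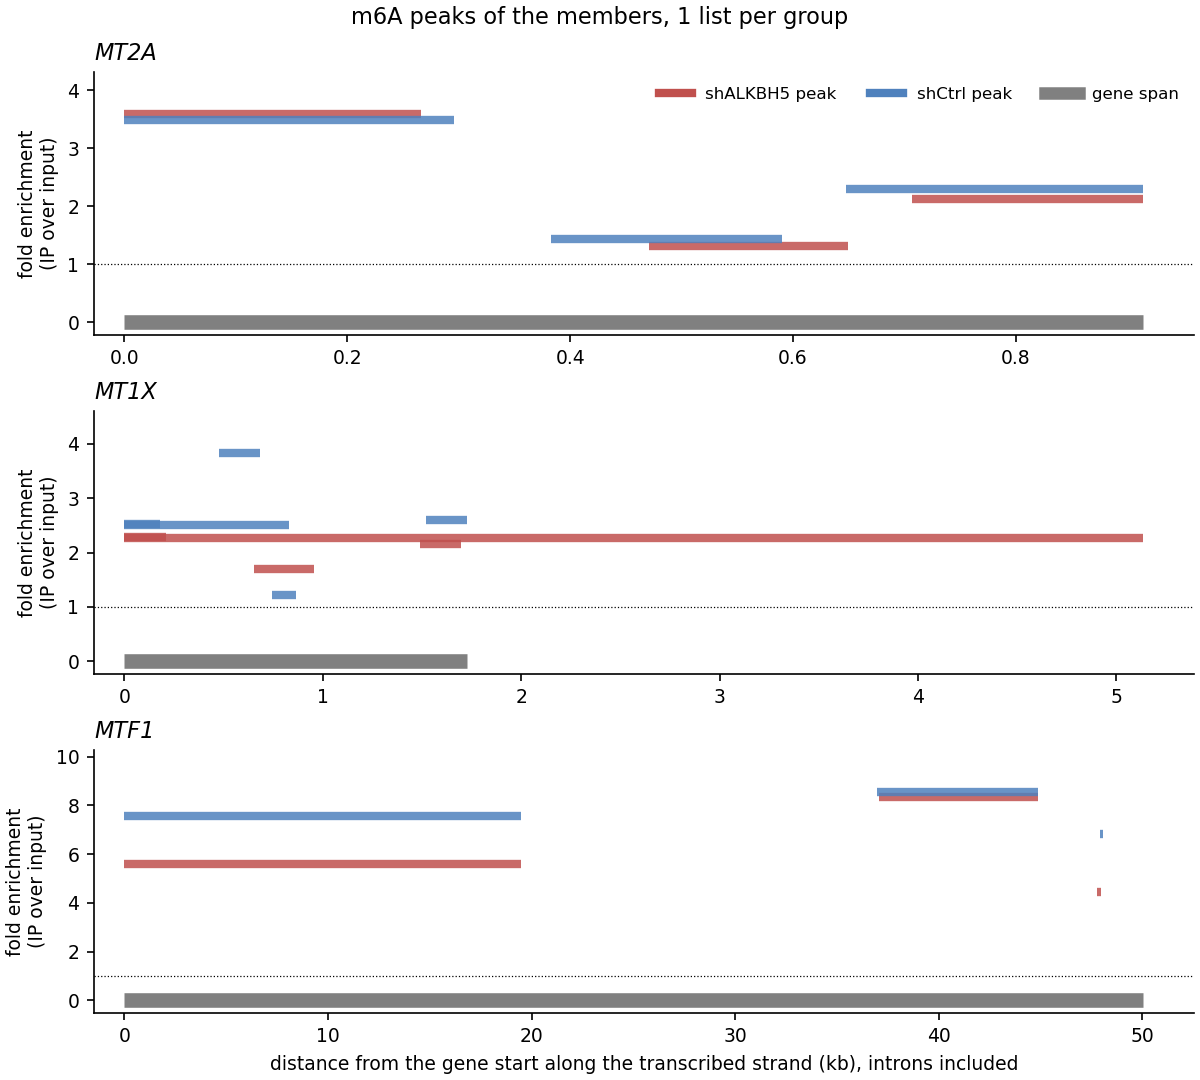
m6A peaks of MT2A, MT1X and MTF1 by distance from the gene start (kb, introns included), drawn at their fold enrichment of IP over input, for shALKBH5 (red) and shCtrl (blue). The grey bar is the gene span and the dotted line a fold enrichment of 1. MT2A peaks lie at nearly the same height in both lists, the MTF1 5′UTR peak is at 5.58 in shALKBH5 and 7.56 in shCtrl, and 1 MT1X peak runs past the gene end.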

How the data were processed

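Expression was analysed in 6 input libraries and m6A peaks in the lists made from the 3 IP and 3 input libraries of each group, which the labels assign to shALKBH5 or shCtrl. The authors deposited FPKM per gene and library. The authors also deposited, per group, peaks with a fold enrichment (ratio of IP over input), and a log10 p and log10 FDR per peak, which were treated as a score. The study's methods name edgeR for quantifying transcripts and testing them, while the aligner, the read counting and its strand setting, and the peak caller are not given in the sources used here. The submitters' processing notes name mm10, a mouse build, but 99.9% of 21699 genes matched by symbol overlap their GRCh38.p14 span, and the spans of MT2A, MT1X and MTF1 are identical to it. Peak starts, which count from 0, are printed as 1-based. The authors' fold changes, p-values, FDRs and regulation labels for genes and for differential peaks were not used.

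Log2(FPKM + 0.1) was fitted in R 4.3.3 with limma 3.58.1 (eBayes with a mean-variance trend), two-sided, with Benjamini-Hochberg adjustment over all genes whose mean reached 0.5 FPKM. The pseudocount makes the fold change of low genes too small. Summaries and plots were made with pandas 2.3.3, numpy 2.4.6 and matplotlib 3.10.9 under Python 3.11.15. The fit was tested on simulated data. Samples with the same replicate number did not deviate together (correlations 0.0181, -0.0462 and 0.0591), so no pairing was used.

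Members and gene lists were chosen with earlier results of these data known. The text names the members, ALKBH5, other listed metallothioneins, SLC30A1, SLC39A10, HMOX1, up to 3 genes per list with the largest change among those called with groups apart, the nearest neighbours on each side and the one with the largest change, and the 3 genes most like MT2A. SLC30A4, SLC39A7, SLC39A14, ATOX1, COX17, SOD1, ATP7A, ATP7B, HSPA1B, HSF1, PRDX1, GPX1, SGK1, NR3C1, FTH1, CREBBP, EP300, NLRC5 and the cell type markers named were chosen after their values were seen. Tried as alternatives were other pseudocounts (0.01 and 1), the filter left out or set at 1 FPKM, median-ratio rescaling, a replicate block, no trend in eBayes, each library omitted in turn, stricter peaks and a reciprocal overlap of 50%.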

Additional observations from a re-analysis of the deposited data

How the results depend on the processing

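Under all alternatives tried, MT2A kept its fall (log2 -1.42 to -1.29, largest limma adjusted p 4.094e-05), MT1X its rise (0.53 to 0.69, largest adjusted p 0.00417) and MTF1 its rise (0.84 to 1.02, largest adjusted p 0.000252). With 1 library left out, which leaves a group with 2, MT2A ranged from -1.38 to -1.29, MT1X from 0.54 to 0.69, MTF1 from 0.96 to 1.02, and the log2 difference of MT1X per MT2A from 1.90 to 2.01. The replicate block gave -1.34, 0.60 and 1.00 for MT2A, MT1X and MTF1 and moved the genes called over the whole table from 4509 to 4142 higher and from 3408 to 3129 lower. The block left 1 zinc exporter called lower in place of 2, and no other count of a list or of neighbours moved by over 1.5 times with it. Median-ratio rescaling gave 3788 higher and 3898 lower over the whole table. A filter at 1 FPKM left 1 neighbour called higher in place of 2, 0 glucocorticoid-induced genes called lower in place of 1, and 1 zinc exporter called lower in place of 2, because fewer genes were tested, and 1 zinc exporter was also called lower with no filter. A pseudocount of 1 moved low genes most, SLC39A10 to -0.49, SLC7A11 to -0.47, FKBP5 to -0.49 and PGF to -0.62 on the log2 scale, with each still called. A reciprocal overlap of 50% left 7 pairs of member peaks and stricter peaks (fold enrichment of at least 2, FDR of at most 0.01) left 11, in place of 18, as fewer pairs qualify. Among list genes, GPX1 was the gene called higher in the thiol list, a count that was 0 with no filter and with rescaling. The 3 libraries per group and the unknown depth limit the precision, values of MT1F, MT1P1 and MT1XP1 are too low to compare, and peaks have no replicate values.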
